A study of Bubalus bubalis with 8 samples.

Results

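The 8 h array of a heat shock time course was compared with the array of unstressed cells, both from mammary epithelial cells (MECs) of the riverine buffalo, Bubalus bubalis. These are 2 of the 8 arrays of the series. A probe entered the comparison when Feature Extraction, the image software, had marked its signal as well above background on either array, which is called bright here and otherwise dim. A dark patch of the unstressed array, 115 rows by 30 columns, was left out. Of the 43653 probes on the array, 11956 (27.4%) met this and had a value on both arrays, and they carried 8174 of the 24839 gene names. A further 5 probes had an outlier mark on an array and were left without a change.

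The study exposed MECs to 42 °C for 1 h, returned them to 37 °C and took RNA at 7 times, and each condition was hybridised to 1 bovine oligonucleotide array with 1 dye. The unstressed group (CTR) was kept at 37 °C with 5% CO2, and the 8 h group was MECs at 8 h of recovery after the heat. The paper describes control plates harvested at the times of the treated ones. The series holds 1 CTR array, and its labels give no harvest time. A difference in time in culture between the CTR and 8 h arrays was not tested. All cells were a primary culture from the mammary gland of a single healthy adult buffalo at passage 10, grown on collagen, so the data hold 1 animal, 1 culture and 1 array per condition. The CTR, 8 h, 12 h and 24 h arrays were on the same slide and in the same scan, and the remaining 4 time points were on another slide and were not used here.

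Heat unfolds proteins, and cells answer with heat shock factors that switch on genes for molecular chaperones. HSP70 proteins, with their DNAJ partners and BAG exchange factors, bind and release unfolded chains, HSP90 matures signalling proteins, and small heat shock proteins hold aggregating proteins until they can be refolded. The response is transient, and during it cells commonly slow division and general protein synthesis.

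Some of the 60-base probes behind the chaperone results are shown, since the array was designed on cattle sequence and each level is the signal of 1 such probe. HSPA1A is shown by 3 of its 4 probes, at separate places of the gene, and BAG3 by 2 of its 3 probes, which disagreed. HSPA6 had 1 probe, CRYAB and DNAJB1 are each shown by 1 of 2, and HSPB8 by 1 of 3, the one with the smallest bound. Positions are those the array files give on the cattle build HGSC Btau_3.1. Gene models of that build were not used here, so exon and UTR positions are not stated. Sequences are written 5′ to 3′ in lower case, and no base is marked.
HSPA1A, chr23:27313147-27313206, minus strand: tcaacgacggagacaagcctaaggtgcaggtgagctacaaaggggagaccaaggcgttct
HSPA1A, chr23:27312716-27312775, minus strand: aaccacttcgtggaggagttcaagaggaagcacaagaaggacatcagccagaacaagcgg
HSPA1A, chr23:27311987-27312046, minus strand: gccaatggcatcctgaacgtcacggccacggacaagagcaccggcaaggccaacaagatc
HSPA6, chr3:8748912-8748971, minus strand: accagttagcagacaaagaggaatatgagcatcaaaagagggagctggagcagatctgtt
CRYAB, chr15:20479069-20480618, minus strand: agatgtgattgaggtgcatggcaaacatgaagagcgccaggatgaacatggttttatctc
HSPB8, chr17:59096900-59096959, minus strand: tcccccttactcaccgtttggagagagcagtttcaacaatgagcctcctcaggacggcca
DNAJB1, chr7:9504147-9504206, minus strand: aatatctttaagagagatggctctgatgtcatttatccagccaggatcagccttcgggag
BAG3, chr26:40302689-40302748, plus strand: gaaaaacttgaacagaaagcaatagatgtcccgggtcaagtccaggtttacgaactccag
BAG3, chr26:40302228-40302287, plus strand: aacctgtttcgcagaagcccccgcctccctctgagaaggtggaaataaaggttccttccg
The CRYAB probe is 60 bases long and its match covers 1550 bases of the chromosome, so it crosses at least 1 splice junction.

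Levels are log2 signals relative to the 75th percentile of each array, so that 0 is the 75th percentile and a difference of 1 is 2-fold. A change is the 8 h level minus the CTR level. With 1 array per condition no test was possible, and no difference could be set against a spread between cultures. The available error is that between spots of 1 probe on an array, an SD of 0.21 on the CTR array (15 probes) and 0.19 on the 8 h array (16 probes), which gives 0.29 for the change of a probe with 1 spot. A probe that was dim on 1 of the arrays has only a bound, written as at least so many fold.

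The bulk of the probes lay near the diagonal. Of the 10281 probes bright on both arrays, 94.7% differed by less than 2-fold, and their median change was -0.13. Among all 11956 probes, 148 were at least 3-fold higher at 8 h, which is 1.24% of those compared, and 143 were at least 3-fold lower, which is 1.2%. Scaling by each array's median in place of its 75th percentile added 0.17 to every change and gave 193 higher and 103 lower. Of the spots, 53.5% on the CTR array and 51.9% on the 8 h array shared the array's dimmest value, so each median was that value. Median scaling therefore set the dimmest spots of both arrays equal and did not draw on the bright probes. Only 40 of the 148 and 14 of the 143 were bright on both arrays. The other 108 higher and 129 lower probes were dim on 1 array, and of these 16 and 6 had a bound of 3-fold or more.

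**Figure D1:**
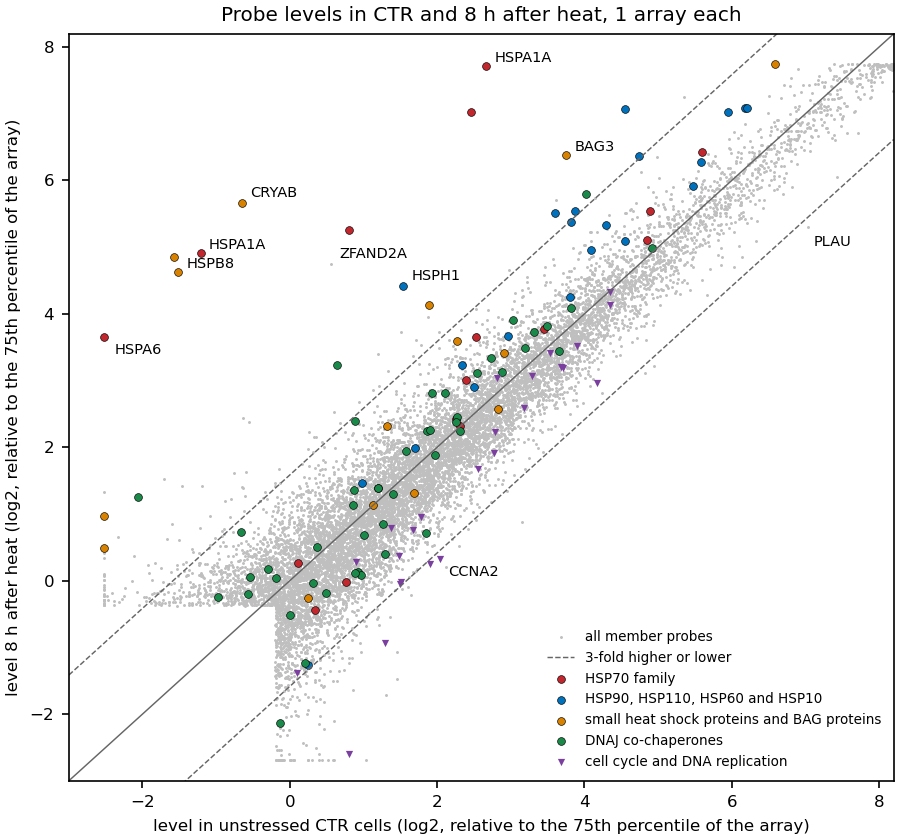
Level of each of the 11956 probes in CTR (horizontal axis) and 8 h after heat (vertical axis), log2 relative to the 75th percentile of the array, 1 array each. The solid line marks equal levels and the dashed lines 3-fold. Probes of HSPA1A, HSPA6, CRYAB, HSPB8, ZFAND2A, HSPH1 and BAG3 lie far above the upper dashed line, while probes of the cell cycle list lie near or below the diagonal.

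The CTR array was dim around the patch that had been left out, and this touched the count of higher probes. Within 10 spots of the patch, 62 of 934 probes (6.64%) were at least 3-fold higher and 1 was 3-fold lower. At over 50 spots, 50 of 7706 (0.649%) were higher and 128 (1.66%) lower. The local median of the CTR array against the mean of the 12 h and 24 h arrays was -0.46 in the first band and 0.11 in the last, while that of the 8 h array was 0.05 and -0.03. After subtracting the local median of the change, the 3-fold counts were 78 higher and 112 lower. At over 50 spots they were 43 higher and 89 lower, so local differences touched the lower count as well. Probes within 10 spots are therefore named with their locally centred change. So is any probe past 2-fold whose locally centred change differs by more than 1.5 times.

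**Figure D2:**
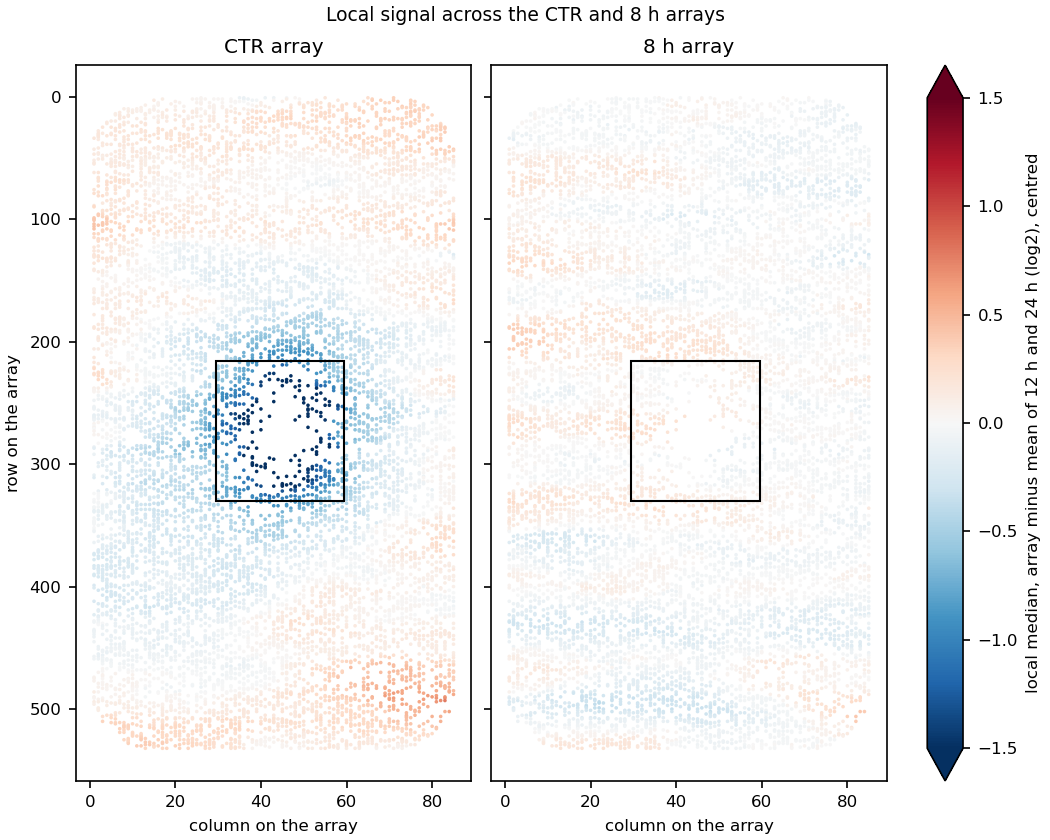
Local median of the CTR array (left) and the 8 h array (right) minus the mean of the 12 h and 24 h arrays, log2 and centred, at each spot bright on all 4 arrays and by its row and column on the array. Blue is dim, and the black frame is the patch that was left out. The dim area of the CTR array reaches beyond the frame, where the local median at a probe went as low as -0.98. On the 8 h array it lay between -0.45 and 0.50 outside the frame, so that array was not even either.

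Heat shock genes made up the far end of the higher side. HSPA1A, the inducible cytosolic HSP70 chaperone, was read by 4 probes, and the levels at 8 h were between 4.91 and 7.71 against -1.21 to 2.67 in CTR. Its brightest probe stood at 2.67 in unstressed cells, 7.71 at 8 h, and 5.06 and 1.85 on the later arrays. The 8 h spot was saturated, so the change was at least 32.9-fold. The other 2 probes bright on both arrays gave 23.5-fold and 21.9-fold, and the remaining one, dim in CTR and 9 spots from the patch, gave at least 34.4-fold and a locally centred change of 5.93. HSPA1A has near-identical copies in the cattle genome, and these probes cannot be assigned to a single copy.

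HSPA6, a strictly inducible HSP70, was at -2.52 in CTR, the value shared by all of that array's dimmest spots. Its 8 h level was 3.65, its 12 h level 0.33 and its 24 h level -2.08, again that of the dimmest spots. The difference was at least 14.4-fold. The constitutive members differed less. HSPA8, the housekeeping HSP70 of the cytosol, had 4 probes with changes between 0.62 and 1.13, HSPA9, the mitochondrial HSP70, had 0.31, and HSPA4, an HSP110-type exchange factor, had a median of 0.21. Of the 8 family members with a probe in the comparison, HSPA1A and HSPA6 were at least 2-fold higher and none was 2-fold lower, and the family median was 0.26. The 7 heat shock genes that the study singled out, HSPA1A, HSPA6, HSPB8, HSPH1, HSPA5, DNAJB1 and DNAJB2, had a median of 2.88. With dim probes set at their bound the median was 1.64 and 6 of the 7 were at least 2-fold higher, all but DNAJB2, but the genes were chosen on these samples and are no independent evidence. Across all 8174 gene names the median was -0.12, with 344 (4.21%) at least 2-fold higher and 412 (5.04%) at least 2-fold lower by the median of a gene's probes. With dim probes at their bound these were 168 and 197. A change below 0 was the more common one, in 4868 gene names (59.6%), or in 3730 (45.6%) with median scaling.

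The small heat shock proteins and BAG proteins had the highest median among the lists of at least 5 compared genes that were not taken from the study, 1.15 over 9 genes, with 5 at least 2-fold higher and none 2-fold lower. CRYAB, the alpha B-crystallin chaperone, was dim in CTR on both of its probes, at -0.65 and -1.58. The first probe stood at 5.66, 5.59 and 4.01 at 8, 12 and 24 h, and the second at 4.85, 4.90 and 2.81. The bounds were at least 58.1-fold and at least 33.2-fold, and CRYAB stood nearly as high at 12 h as at 8 h. HSPB8, a small heat shock protein that works with BAG3, was dim in CTR on 3 probes. Its brightest probe reached 4.63 at 8 h, with 2.05 and 0.20 on the 12 h and 24 h arrays, at least 28.4-fold higher at 8 h than in CTR, and the other probes had bounds of 2.25-fold and 1.62-fold.

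BAG3, the HSP70 cofactor that routes clients to autophagy, was at 3.75 (CTR), 6.38 (8 h), 4.43 (12 h) and 3.35 (24 h) on its brightest probe, 6.19-fold higher at 8 h. Another probe gave 4.73-fold. The third, printed last above, gave a change of -0.26 at levels of 2.82 and 2.57, so the probes of BAG3 disagreed. BAG2, an inhibitor of client ubiquitination, gave 1.33 and 0.99 on its probes. HSPB1, the abundant small heat shock protein HSP27, was at 6.59 in CTR and saturated at 8 h, at least 2.22-fold higher. BAG1, BAG4, BAG6 and HSPB6 had changes between -0.50 and 0.19. Without the probes dim on an array, which drops CRYAB and HSPB8, the median of the list was 0.19.

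**Figure D3:**
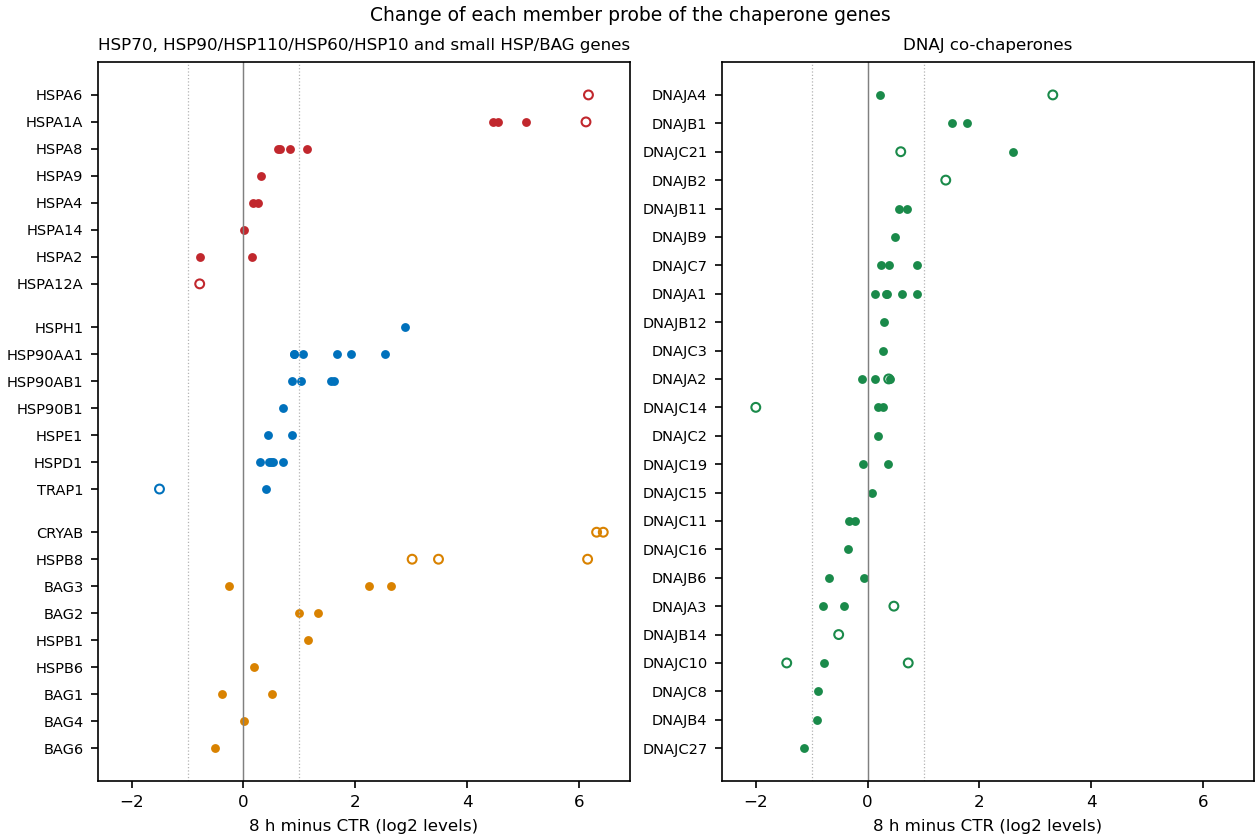
Change (8 h minus CTR, log2 levels) of every compared probe of the chaperone genes. Filled points were well above background on both arrays and open points on 1 of them, and dotted lines mark 2-fold. HSPA6, HSPA1A, CRYAB and HSPB8 reach beyond 3, all 10 probes of HSP90AA1 and HSP90AB1 are above 0.8, and most DNAJ genes lie within 2-fold.

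HSPH1, the HSP110 exchange factor for HSP70, was at 1.54 in CTR and 4.42 at 8 h, then 2.52 and 1.53 on the 12 h and 24 h arrays, 7.35-fold higher at 8 h. HSP90AA1, the inducible cytosolic HSP90, gave changes of 0.90 to 2.52 on 6 probes, and its highest change came from a probe 2 spots from the patch whose locally centred change was 1.48. HSP90AB1, the constitutive partner, gave 0.88 to 1.62 on 4 probes, or 0.56 to 1.22 after local centring. The endoplasmic reticulum form HSP90B1 (0.70) and the mitochondrial chaperonins HSPD1 (0.29 to 0.70 on 5 probes) and HSPE1 (0.44 and 0.86) were higher by less than 2-fold. TRAP1, the mitochondrial HSP90, gave 0.40 on a probe 3 spots from the patch, or -0.48 after local centring, and was dim at 8 h on another, at least 1.53-fold lower there. The list of 7 had 3 genes at least 2-fold higher, none lower and a median of 0.70.

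Of 24 DNAJ genes, the J-domain partners that bring clients to HSP70, 4 were at least 2-fold higher and 1 lower by the median of their probes, or 2 and 1 with dim probes at their bound, and the list median was 0.19. DNAJB1, the HSP40 that acts with inducible HSP70, was at 4.02 in unstressed cells, 5.80 at 8 h, and 3.91 and 3.37 on the later arrays, 3.43-fold higher. This probe lay 8 spots from the patch and had a locally centred change of 1.55, and the probe printed above, 57 spots away, gave the same locally centred value. DNAJA4 was dim in CTR on 1 probe and at least 2.73-fold higher at 8 h, with 0.22 on another. DNAJC21 gave 2.60 on a probe 6 spots from the patch, or 1.38 after local centring, and was dim in CTR on another, at least 1.19-fold higher. DNAJB2 was dim in CTR at 9 spots from the patch and at least 1.91-fold higher, with a locally centred change of 0.95. DNAJC27, a J-domain GTPase, was 2.19-fold lower, with a locally centred change of -0.82 that was short of 2-fold.

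Among 15 cochaperones of HSP90 and HSP70, CACYBP, the calcyclin-binding protein, was the single gene past 2-fold by the median of a gene's probes. It stood at 3.62 (CTR), 5.71 (8 h), 4.91 (12 h) and 2.93 (24 h), 4.27-fold higher at 8 h. AHSA1, the activator of the HSP90 ATPase, gave 1.05 and 0.35 on its probes, and STIP1, which links HSP70 to HSP90, gave 0.21 to 1.22 on 5 probes. UNC45A gave -1.08 to -0.13 on 3 probes. AHSA2 was dim in CTR on 1 probe, at least 1.60-fold higher, and dim at 8 h on another, at least 1.13-fold lower. The locally centred changes of these AHSA2 probes were 1.18 and -1.24. The list median was 0.06. None of the 14 TRiC and prefoldin subunits, which fold actin and tubulin, passed 2-fold, and their median was 0.13.

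**Figure D4:**
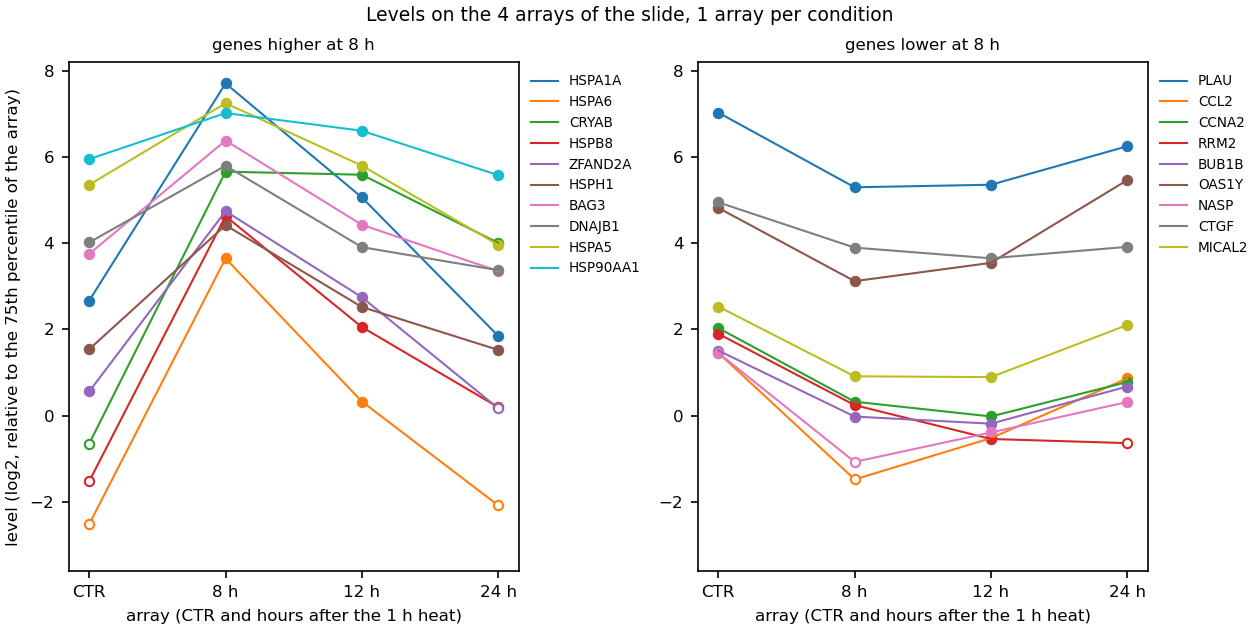
Levels (log2 relative to the 75th percentile of each array) on the CTR, 8 h, 12 h and 24 h arrays of the slide, 1 array and 1 probe per gene. Filled points were well above background and open points were not. HSPA1A, HSPA6, ZFAND2A, HSPH1 and BAG3 were highest at 8 h and at or below their CTR level, or dim again, at 24 h. CRYAB was still at 4.01 at 24 h, and PLAU, CCL2, CCNA2 and OAS1Y were lower at 8 h than in CTR.

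The protein quality control genes downstream of chaperones were nearly level. Of 36 proteasome subunits none passed 2-fold by the median of its probes, and the list median was -0.04, or 0.14 with median scaling. Of 15 ubiquitin and autophagy receptor genes none passed 2-fold by the median of its probes, and the list median was -0.07, or 0.10 with median scaling. ZFAND2A, an arsenite-inducible partner of the proteasome also called AIRAP, differed from them. It was at 0.56 in CTR and 4.74 at 8 h, then 2.75 and 0.17 on the 12 h and 24 h arrays, and was 18.2-fold higher at 8 h, the second gene after HSPA1A among probes bright on both arrays.

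Of 19 genes for chaperones of the endoplasmic reticulum and its unfolded protein response, 1 was past 2-fold by the median of its probes. This was HSPA5, known as BiP. HSPA5 had 4 probes with changes of 1.12, 1.33, 1.71 and 1.89. The brightest lay 7 spots from the patch with a locally centred change of 1.55, and the other 3 lay over 100 spots away. That brightest probe stood at 5.36 in unstressed cells, 7.25 at 8 h, and 5.80 and 3.97 on the later arrays. XBP1 and ATF4, transcription factors of the response, had gene medians of 0.19 and -0.72, and the list median was 0.30.

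The heat shock factor list held HSF1, the main activator of heat shock genes. Its bright probe was at 3.44 in CTR and 3.43 at 8 h, a change of -0.01, and its other 2 probes were not well above background at 8 h. In this list of 15 genes, 3 were at least 2-fold higher and none lower, and the median was -0.05, or 0.12 with median scaling. GADD45B, a growth arrest and stress gene, was 2.23-fold higher and IER2, an immediate early gene, 2.08-fold, or 0.74 after local centring. ATF3, a stress transcription factor, was 3.50-fold higher at 4 spots from the patch, with a locally centred change of 1.42. IER3, an immediate early response gene, gave -1.07 on 1 probe, or -0.90 after local centring, and -0.37 on another. DUSP1, a MAP kinase phosphatase, had a change of 0.06 at levels of 4.38 and 4.44.

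Outside the chaperones, SAT1, which acetylates polyamines, was at 1.87 (CTR), 3.95 (8 h), 3.68 (12 h) and 1.77 (24 h), 4.23-fold higher at 8 h. BANP, a nuclear matrix protein that binds methylation-sensitive promoters, was 4.65-fold higher on 1 probe and gave a change of 1.98 on another. HMOX1, the heme oxygenase of the oxidative stress response, was at 2.98 in CTR and 4.66 at 8 h, then 3.47 and 3.24 on the 12 h and 24 h arrays, higher at 8 h by 1.68 on the log2 scale. FOSL2, an AP-1 subunit, was 3.49-fold higher, NUMBL, an adaptor of Notch signalling, 3.12-fold, and TLE3, a transcriptional corepressor, 3.02-fold. NIPBL, MED31, ARPP21 and DDX52 also stood among the 15 largest rises, at 3.23-fold to 3.83-fold and 12 to 21 spots from the patch, but their locally centred changes were 0.70 to 1.05.

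Most other antioxidant genes were within 2-fold. Of 13 with a probe in the comparison, TXNRD1, thioredoxin reductase, was past 2-fold at 6 spots from the patch, with 1.26 falling to 0.46 by local centring. NQO1, a quinone reductase, was dim at 8 h and at least 1.54-fold lower. GPX1, glutathione peroxidase, had changes of -0.48 to 0.41 on 3 probes, and the list median was -0.14, or 0.04 with median scaling.

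Of 10 targets of p53 and growth arrest genes, 5 were at least 2-fold higher and none lower, and the median was 0.89, or 0.59 with 2 genes past 2-fold after local centring. CDKN1A, the p21 inhibitor of cyclin-dependent kinases, was at 4.77 in unstressed cells, 6.13 at 8 h, and 5.45 and 5.16 on the later arrays, 2.57-fold higher, and 0.84 on a dimmer probe. TP53INP1, a p53-induced nuclear protein, was 2.36-fold higher. MDM2, the ubiquitin ligase of p53, gave 1.90 on a probe beside the patch and 0.34 on another, with locally centred values of 1.19 and 0.14.

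All 16 cell cycle and DNA replication genes with a probe in the comparison had a change below 0, or 14 of 16 with median scaling, against 59.6% and 45.6% of all gene names. None was 2-fold higher and 4 were at least 2-fold lower, or 3 with dim probes at their bound, and the median was -0.59, or -0.71 with 5 past 2-fold after local centring. CCNA2, the cyclin of S phase and mitotic entry, was at 2.03 (CTR), 0.32 (8 h), -0.02 (12 h) and 0.78 (24 h), 3.27-fold lower, and its other probe was at least 2.25-fold lower. RRM2, the regulatory subunit of ribonucleotide reductase, was at 1.90 in CTR and 0.25 at 8 h, 3.15-fold lower, and BUB1B, a spindle checkpoint kinase, was 2.89-fold lower. PLK1, the mitotic polo kinase, stood at 4.17 and 2.96, which was 2.32-fold lower. CCND1, the cyclin of G1, was level at 4.35 and 4.33.

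With the brightest probe standing for each gene, the 15 largest falls among probes bright on both arrays ran from 2.89-fold to 3.62-fold lower. CCNA2, RRM2 and BUB1B were among them. RFC5, a subunit of the clamp loader of DNA replication, stood at 1.64 in CTR and -0.21 at 8 h, then 0.40 and 0.58 on the 12 h and 24 h arrays, 3.62-fold lower at 8 h. KIF2C, a mitotic kinesin, and FAM83D, a spindle protein, were 2.92-fold and 2.98-fold lower, and NASP, a histone H1 chaperone, was dim at 8 h and at least 3.55-fold lower. Also dim at 8 h were LBH (at least 3.33-fold lower), NBEA (3.01-fold), FSTL1 (2.98-fold), PLEK2 (2.95-fold), IFT43 (2.95-fold) and COQ9 (2.72-fold). MICAL2, an actin oxidase, was 3.07-fold lower and XAF1, an antagonist of XIAP, 3.03-fold. RMI2, TCF19, TNFRSF21, MFSD2A and IVL were 2.91-fold to 3.13-fold lower, and PLAU and OAS1Y completed the 15.

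PLAU, the urokinase plasminogen activator, was at 7.03 in unstressed cells, 5.30 at 8 h, and 5.36 and 6.25 on the later arrays, 3.32-fold lower at 8 h, and its other 2 probes, dim at 8 h, were at least 3.21-fold and 1.95-fold lower. CCL2, the monocyte chemokine, was at 3.15 in CTR and 0.88 at 8 h on a probe 4 spots from the patch, with a locally centred change of -2.83. On its other probe CCL2 was at 1.46 (CTR), -1.48 (8 h), -0.52 (12 h) and 0.86 (24 h), at least 3.56-fold lower. OAS1Y, an interferon-induced antiviral synthetase, was 3.25-fold lower at 8 h and stood at 5.47 at 24 h against 4.82 in CTR. By the median of a gene's probes, dim ones at their bound, OAS1Y was the single gene of 10 in the interferon response list at least 2-fold lower. None was 2-fold higher, and 4 of the 10 were above 0. MX1 had a median of -0.87 over 2 probes, the lower at -1.17, or -0.85 after local centring. DDX58, an RNA sensor, stood at 0.21 in CTR and was dim at 8 h, with a bound under 2-fold, and the list median was -0.22.

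Targets of growth factors and TGF beta signalling had the lowest median of the lists drawn in the plot by list, -0.63 over 13 genes, with 4 at least 2-fold lower and none higher, or 3 lower with dim probes at their bound and 2 after local centring. After local centring the cell cycle list was the lowest, at -0.71 against -0.64. CTGF, a matricellular growth factor, gave -1.05 on its brighter probe and -1.91 on the other, a larger fall than that of RFC5. THBS1, thrombospondin, gave -0.90 to -1.14 on 5 probes, and its brightest was at 6.10 in CTR and 5.03 at 8 h, then 6.38 and 6.74 on the 12 h and 24 h arrays. ID1, a helix-loop-helix inhibitor, was 2.05-fold lower with a locally centred change of -0.72, and IGFBP5, a binder of insulin-like growth factors, gave -0.55 on 1 probe and was dim at 8 h on another, at least 2.52-fold lower. NFKBIA, the inhibitor of NF-kB, was lower on all 4 probes, by 1.02 to 1.35 on the log2 scale. NFKB1 itself had a change of -0.51 at levels of 0.79 and 0.29.

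**Figure D5:**
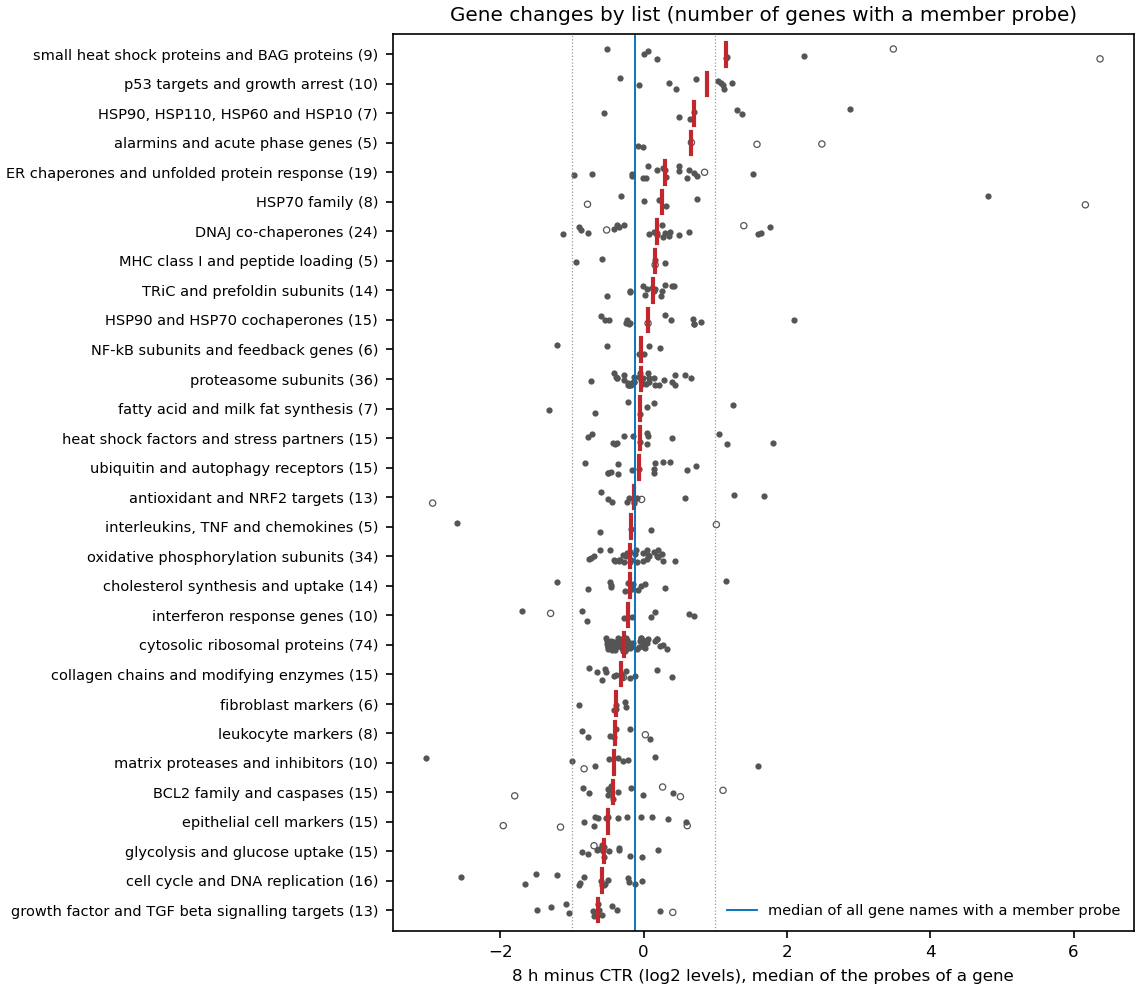
Change of each gene (8 h minus CTR, log2 levels, median of its probes) by list, for the lists with at least 5 genes in the comparison that were not taken from the study. Filled points have a probe bright on both arrays, open points do not, red bars are list medians, the blue line is the median of all gene names (-0.12) and dotted lines mark 2-fold. As plotted, small heat shock and BAG proteins have the highest median (1.15), and growth factor and TGF beta signalling targets the lowest (-0.63).

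Fewer of the named falls than of the named rises stayed past 2-fold under another background correction. Normexp background correction started from the mean spot signal in place of the processed signal, and adds 50 to every signal. With it, 51 of 58 named probes past 2-fold on the higher side stayed past it. On the lower side 15 of 43 did, and all kept their direction. The added 50 shrinks changes at low signal, and the named rises reached larger changes than the falls, so the counts do not single out the background. By that correction the 3-fold counts were 44 higher and 3 lower.

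Inflammatory and cell death genes gave few values. Of 29 interleukin, TNF and chemokine genes on the array, 5 had a probe in the comparison, and IL6 on 3 probes and TNF on 2 were dim throughout the 4 arrays. Of 15 members of the BCL2 family and caspases, none was shown to be past 2-fold. PMAIP1, a BH3-only protein dim in CTR, lay 15 spots from the patch and was at least 1.68-fold higher, with a locally centred change of 0.40, and BBC3, another BH3-only protein, was dim at 8 h and at least 1.27-fold lower. BAX, a pore-forming member, had a change of -0.48 at levels of 1.82 and 1.33, or -0.14 after local centring. The probe of BCL2 was dim on both arrays. LBP, the lipopolysaccharide-binding protein, was dim in CTR and at least 1.49-fold higher at 8 h.

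Translation and energy genes gave changes under 2-fold by the median of their probes. Of the 74 cytosolic ribosomal protein genes none passed 2-fold, 61 (82.4%) were below 0, or 51 (68.9%) with median scaling, where all gene names had 59.6% and 45.6%, and the median was -0.27 beside -0.12 for all gene names. The genes that the study used as qPCR references, EEF1A1, RPL4 and RPS23, had medians of -0.54, -0.43 and -0.28. RPL4 had 1 probe at -1.43 while its 4 other compared probes lay between -0.63 and 0.56. The highest lay 6 spots from the patch and had a locally centred change of -0.48. In the glycolysis list, 14 of 15 genes (93.3%) were below 0, or 13 (86.7%) with median scaling, and none passed 2-fold, with a median of -0.56. Of 34 oxidative phosphorylation subunits none passed 2-fold, and the median was -0.19.

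Probes that were bright only at 8 h included genes with no chaperone role. STX6, a Golgi syntaxin, was at least 3.06-fold higher, DEDD2, a death effector domain protein, at least 3.01-fold, and IGF2, the fetal growth factor, at least 2.77-fold. PRSS57, a serine protease of neutrophil granules, was at 1.33 at 8 h and at or below -1.84 on the other 3 arrays, at least 2.89-fold higher. TMEM189 had a bound of 2.89-fold and lay 19 spots from the patch, with a change of 1.67 that was 0.81 after local centring. RRAD was at least 2.36-fold higher, with a locally centred change of 0.86.

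Epithelial markers were detected, and milk protein genes for the most part were not. Of 18 epithelial markers, 14 were well above background in CTR and 13 at 8 h, and the keratins KRT5 and KRT17 were above 5 on their brightest probes on both arrays. The summed linear level of the list was 838 in CTR and 658 at 8 h, in multiples of the array's 75th percentile. KRT18 was dim on its 3 probes throughout the 4 arrays. Of 7 milk protein genes on the array only CSN2, beta-casein, was detected. It was bright on 1 of 4 probes, at 2.22 in CTR and 1.99 at 8 h.

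Among markers of other cells, 6 of 15 fibroblast markers were detected on both arrays, with summed levels of 497 and 363. Of these, COL3A1 was compared on 1 of 9 probes and COL1A1 on 1 of 5. VIM, a mesenchymal filament that cultured epithelial cells also express, was at 7.47 and 7.09 on its brightest probe. Of 18 leukocyte markers, 7 were detected in CTR and 8 at 8 h, with summed levels of 42.0 and 32.2, and CD14, CD3E and ITGAM were dim on both. None of 9 endothelial markers was detected. In a bulk sample, fewer cells of a type and less RNA per cell cannot be told apart, and the part of cell composition in the lower levels at 8 h was not tested.

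Probes for the same gene gave a second reading of the same RNA. For the 1818 genes with at least 2 probes bright on both arrays and over 10 spots from the patch, the SD of the change between probes of a gene was 0.33, and 0.24 after local centring. Of these, 7 genes had a probe at least 3-fold higher, and of their 19 other probes 15 were also higher, 10 past 2-fold. Another 5 genes had a probe at least 3-fold lower, and all of their 18 other probes were lower, 5 past 2-fold.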

How the data were processed

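RNA of each condition was hybridised to an Agilent bovine array, and per the labels and file headers the authors extracted spot intensity with Feature Extraction 9.5.3.1, which subtracts background and detrends within the array. The deposited log2 table holds the same arrays shifted to the 75th percentile and centred on each probe's median over the 8 arrays, by the authors, and was used as an alternative. Here the log2 processed signal was set relative to the 75th percentile of each array over the probes that are no controls, outlier-marked spots were left out, and spots of 1 probe were averaged (Python 3.11.15, pandas 2.3.3). A bound took the lowest level among probes well above background, or the dim probe's own level if higher. No probe has replicate arrays, so the number of arrays limits the precision. A gene's change is the median of its probes, dim ones at their measured level unless a bound is named. Local centring subtracted the median change of bright probes within 10 spots. Genes were named from the files, and 5470 of 6468 member symbols were in RefSeq's buffalo table.

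Named genes were taken from the following sets, though not every member was named. The first was the 15 largest changes in each direction among probes bright on both arrays and over 10 spots from the patch. There each gene had 1 probe, that with the higher mean level. The second was the 10 largest bounds in each direction. The others were chaperone genes past 2-fold, the 2 largest changes of each other list past 2-fold, and genes the study measured by other assays. Counts of named probes cover all members of these sets. Members of lists beyond these were named after their values were seen. The members and the 39 gene lists were chosen with earlier results of these data known. Normexp used limma 3.58.1 and other alternatives are in the closing section.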

Additional observations from a re-analysis of the deposited data

How the results depend on the processing

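No paired analysis was possible because each condition has 1 array, and for the same reason no array could be left out. The count of 148 probes at least 3-fold higher at 8 h was 44 with normexp background correction, 764 with the dark region kept, 86 with the box widened by 10 rows and columns, 40 with probes well above background on both arrays, 254 with no filter on dim probes, 501 at 2-fold and 438 with the 24 h array in place of CTR. Chosen after seeing the data, local centring gave 78 and a box widened by 25 gave 62. The count of 143 probes at least 3-fold lower was 3 with normexp, 14 with probes well above background on both arrays, 488 with no filter, 690 at 2-fold and 84 with the 24 h array. The other alternatives left both counts within 1.5 times, and the quantile, median and both-array percentile scalings and the deposited log2 values moved none of the 141 named probes by more than the error of a change. Median scaling left 36 of the 43 lower named probes past 2-fold and all 58 higher ones, quantile normalization 42 and 56, and local centring 38 and 50.

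With the 24 h array in place of CTR, the list medians were 1.38 for the HSP70 family, 1.70 for HSP90, HSP110, HSP60 and HSP10 and 0.27 for small heat shock and BAG proteins. The last was 0.19 over probes well above background on both arrays, 0.40 with no filter and 0.67 over probes well above background at 12 h and 24 h, a filter added later. The DNAJ median was -0.17 with no filter, and the adipocyte marker median turned from 1.35 to -0.17, since 5 more genes, all dim, then entered. Setting the named probes against the 24 h array was added after seeing the data. It left 46 of the 58 higher and 24 of the 43 lower past 2-fold, and 3 turned direction, RRM2 to 0.88, RMI2 to 0.0097 and S100A12 to -0.0915. Against CTR, S100A12 lay 13 spots from the patch and had a change of 1.58, or 0.53 after local centring. None of the named probes past 2-fold turned under the background, scaling, outlier and local centring alternatives. The share of higher calls among 3-fold calls moved with the background correction, from 148 and 143 to 44 and 3. Levels close to background limit both sides: 816 compared probes were dim at 8 h and 859 dim in CTR. Each gene's change rests on 1 culture of 1 animal, and signals that approach the scanner's limit, such as those of HSPA1A and HSPB1 at 8 h, understate the difference.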

Other observations

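Few lipid genes passed 2-fold. Of 14 cholesterol synthesis and uptake genes, CYP51A1, a sterol demethylase, was 2.30-fold higher at levels of 1.72 in CTR and 2.92 at 8 h, and FDFT1, squalene synthase, gave -0.99 on a probe bright on both arrays and was at least 1.60-fold lower on another, dim at 8 h, with a list median of -0.19. Of 7 fatty acid and milk fat genes, PLIN2, the coat protein of lipid droplets, stood at 0.14 in CTR, 1.38 at 8 h, 0.65 at 12 h and 0.64 at 24 h, 2.38-fold higher, and AGPAT6, an acyltransferase of milk fat synthesis, gave -0.48 on a probe bright on both arrays and was dim at 8 h on another, at least 1.22-fold lower. CIDEC, another lipid droplet protein, was 2.56-fold higher at levels of 0.38 and 1.74, and was the single adipocyte marker of 6 in the comparison.

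By the median of a gene's probes, none of 15 collagen chain and modifying enzyme genes passed 2-fold. Of them, 13 (86.7%) were below 0 against 59.6% of all gene names, and their median was -0.32. The cold-inducible RNA-binding proteins CIRBP and RBM3 had medians of -0.67 and -0.27. CLDN7 and OCLN, tight junction proteins among the epithelial markers, were dim at 8 h and at least 2.25-fold and 1.32-fold lower. Of 5 compared genes for MHC class I and peptide loading none passed 2-fold.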
